A study of Homo sapiens with 6 samples.

Results

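Nuclear pore proteins and nuclear transport receptors were examined as one functional group of 56 genes, chosen by symbol from a table of 26372 gene symbols, and all 56 were found in it. They comprise 27 proteins of the nuclear pore, 17 importins, 8 export receptors and 4 genes of the RAN cycle. RNA was measured in SH-SY5Y, a human neuroblastoma line, in cells that carried a lentiviral short hairpin RNA driven by a U6 promoter. One group (shNC, 3 libraries) carried a control hairpin, and the other (shTDP43, 3 libraries) carried a hairpin against TDP-43, the RNA-binding protein encoded by TARDBP. Stable knockdown cells were a puromycin-selected population (2 µg/mL for 2 weeks, then 1 µg/mL), and the selection of the control cells is not described separately. The labels name one hairpin against TDP-43 but are silent on how the 3 libraries of each group arose, so p-values measure only the spread between these libraries, which may be technical.

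The nuclear pore is a large ring of nucleoporins through which proteins and RNA pass between nucleus and cytoplasm. Import receptors of the importin beta family carry cargo inward, the classical route through importin alpha adapters that read a nuclear localisation signal, and exportins carry cargo outward. The small GTPase RAN gives direction, since it is kept in its GTP form in the nucleus and in its GDP form in the cytoplasm. TDP-43 is itself imported through importin alpha and importin beta 1, and defects of the pore and of transport receptors have been described in neurons with TDP-43 pathology.

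TDP-43 binds UG-rich RNA, so the members' transcripts were searched for uninterrupted TG repeats (written as DNA, on the sense strand), and the sites are shown because they are the sequence type that this protein is known to recognise. In the longest GENCODE protein-coding transcript of each gene, 3 of 56 members (5.36%) held at least 6 TG units in a row, against 5.13% of 11600 tested protein-coding genes. These lie in the 3 prime UTR of KPNA4 and of TNPO1 and in the 5 prime UTR of the XPO1 transcript used here, and other transcripts of these genes may lack them. Capitals mark the repeat and lower case its flanks, and the XPO1 window is repeat from end to end.
KPNA4 (GRCh38, minus strand, chr3:160500139-160500168): tacatggggTGTGTGTGTGTGgtgtgtgga
TNPO1 (GRCh38, plus strand, chr5:72910782-72910811): tgttactaTGTGTGTGTGTGTGttttgttt
XPO1 (GRCh38, minus strand, chr2:61537754-61537783): TGTGTGTGTGTGTGTGTGTGTGTGTGTGTG
The repeat has 6 units in KPNA4, 7 in TNPO1 and 15 in XPO1. As given below, KPNA4 was lower, TNPO1 higher and XPO1 did not pass the test. A match is a description of letters, not a measured binding site. Introns were not searched, so members without such a repeat here may still carry one there.

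Promoters were compared as the other sequence that these genes might share. Promoters from RefSeq (GRCh38.p14), from 250 bases before to 50 after the start, were at hand for 50 of 56 members, all but NUP43, KPNA4, KPNA5, KPNB1, XPO7 and RANBP1. Searched on both strands, the GC box letters GGGCGG occurred in 56% of the member promoters and 45% of 35116 promoters in all, and the ETS letters CCGGAAG in 22% and 10.3%. The CCAAT letters occurred in 34% and 34.6% and the TATA box letters TATAAA in 6% and 11.5%. NRF1 letters occurred in 4% and 1.24%, and the CG palindrome letters in 0% and 0.424%. YY1 letters occurred in 6% and 1.2%, and the 3 members that held them did not pass. The 35116 promoters were not limited to genes above the filter used below, as all members are. Whether the differences only mark expressed genes was not tested. GC box letters were present in 11 of 19 promoters of members that rose, 3 of 4 of members that fell and 14 of 27 of those that did not pass. The 250 bases before the start are printed for NXF1, the export receptor with the largest rise, and XPOT, that with the largest fall, with these letters in capitals.
NXF1 promoter (GRCh38.p14, minus strand, chr11:62805441-62805690): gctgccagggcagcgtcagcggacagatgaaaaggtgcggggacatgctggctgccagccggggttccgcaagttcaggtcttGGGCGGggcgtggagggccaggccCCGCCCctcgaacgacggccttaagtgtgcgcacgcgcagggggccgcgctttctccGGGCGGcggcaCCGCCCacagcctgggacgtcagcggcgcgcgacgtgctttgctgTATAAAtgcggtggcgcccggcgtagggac
XPOT promoter (GRCh38.p14, plus strand, chr12:64404142-64404391): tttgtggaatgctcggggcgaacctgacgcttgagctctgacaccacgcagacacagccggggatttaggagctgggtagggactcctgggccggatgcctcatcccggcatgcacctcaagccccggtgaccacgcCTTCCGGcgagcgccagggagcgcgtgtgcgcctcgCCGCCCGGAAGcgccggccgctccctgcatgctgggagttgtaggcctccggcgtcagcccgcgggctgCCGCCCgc
NXF1 has 4 GC boxes and 1 TATA box in this window, and XPOT has 2 GC boxes and 2 ETS matches, one of which overlaps a GC box. IPO8, which rose most of all members, holds none of these letters. An absent match says only that these letters are not in the window.

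Values are labelled FPKM, by definition fragments per kilobase of gene scaled to library size, although how they were scaled is not given. Levels can be compared between genes only roughly, and less so where reads fit more than 1 gene. Fold changes were tested with limma on log2(FPKM + 1) over the 13263 genes whose mean reached 1 FPKM, and a gene passed at a Benjamini-Hochberg adjusted p under 0.05. Percentages of control are ratios of mean FPKM. All 56 members were above the filter, from 5.12 FPKM (IPO13) to 147 FPKM (KPNB1) as the mean of the group means. The table holds no read totals, so the depth is unknown. TARDBP (chr1:11012654-11030528 in GRCh38.p14, as are all gene spans below) had 56.1, 56.2 and 56.6 FPKM in the shNC libraries and 36.0, 33.1 and 34.8 FPKM in the shTDP43 libraries. No shTDP43 library reached the shNC range, and TARDBP stood at 61.5% of control (limma adjusted p = 2.84e-06; exact two-sided permutation test p = 0.1, the smallest that 3 against 3 libraries allow). Across genes, r lay at 0.993 to 0.995 for pairs of libraries within a group and at 0.980 to 0.982 for pairs across groups. The small nucleolar RNA SNORD3A was far lower in shNC replicate 1 (11541 FPKM) and shTDP43 replicate 3 (8551 FPKM) than in the other libraries (137209 to 552747 FPKM). Noradrenergic neuroblastoma markers were abundant (9 of 10 tested, summed 1783 to 1789 FPKM in shNC and 1901 to 1950.2 FPKM in shTDP43), with 5 higher, 3 lower and the enzyme gene TH near 0. CHGA had 296 ± 5.09 FPKM in shNC and 520.1 ± 8.04 FPKM in shTDP43 (SD, n = 3), while RET, PHOX2A and HAND2 were the lower ones, at 42.1%, 80.1% and 94.9% of control. Blood, endothelial and epithelial markers summed to at most 1.32 FPKM, with CD3E, HBB and KRT5 at 0 in each library, and Schwann and glial markers to at most 3.19 FPKM. Mesenchymal-state markers summed to 181 to 185 FPKM in shNC and 100.9 to 101 FPKM in shTDP43, with all 6 tested members lower. Of 14 proliferation markers 7 were lower and 2 higher, and they summed to 665 to 674 FPKM in shNC and 634 to 642 FPKM in shTDP43. The part of these shifts in the results below was not tested.

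More members rose than fell, and by small amounts. Of 56 members 20 passed as higher and 6 as lower in shTDP43, and 30 did not pass. The members called make up 46.4%, against 38.1% of all tested genes. For the higher calls the shares were 35.7% of members and 18.5% of all genes, and for the lower calls 10.7% and 19.6%. The 9585 genes whose mean reached 5 FPKM, a range that holds all the members, were also fitted and adjusted on their own. Of these 42.9% were called, 22.6% higher and 20.3% lower. In that fit 20 members were higher and 7 lower, while the member counts set beside these shares are from the fit of all 13263 genes. The median log2 fold change was 0.07 over the members and 0.00 over all tested genes, and 41 of 56 members had a fold change above 0. Of the 26 calls 23 were changes under 1.2-fold on the tested scale, and no member reached 1.5-fold. The groups did not overlap in 37 members (66.1%), against 50.7% of all tested genes. That share was not taken for genes reaching 5 FPKM, so it is no matched comparison. Without both libraries low in SNORD3A, which leaves 2 libraries a group, 12 members were higher and 4 lower. In that setting 1563 of 13259 tested genes were higher and 1760 lower. In bulk RNA, fewer cells of a type and less RNA per cell cannot be told apart, which holds for each change below.

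**Figure D1:**
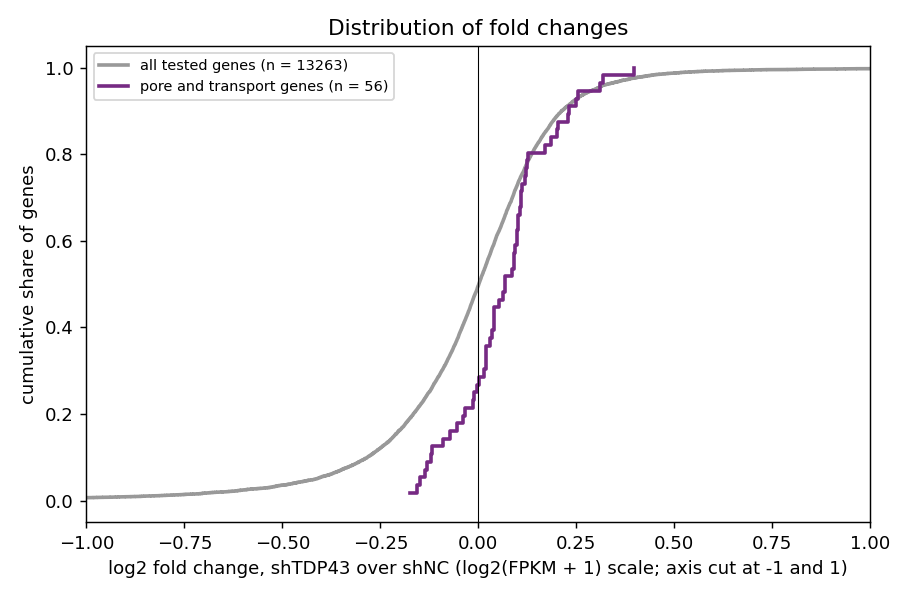
Cumulative share of genes (vertical axis) by log2 fold change, shTDP43 over shNC (horizontal axis, shown from -1 to 1), for all 13263 tested genes (grey) and the 56 pore and transport genes (purple). The purple line crosses 0 further down than the grey line, since 41 of 56 members lie above 0, and it spans only -0.17 to 0.40.

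Pore proteins that passed were all higher, 9 of 27, at 107% to 120.0% of control, and 0 were lower. The share called, 33.3%, was below the 38.1% of all tested genes and the 42.9% of those reaching 5 FPKM. Higher calls made up 33.3% of the 27 and 22.6% of genes reaching 5 FPKM, and lower calls 0% and 20.3%. The median log2 fold change of the 27 was 0.07. The plot of fold changes by class shows that the 9 came from 5 of the 6 substructures, and none from the central channel. The share called was 25% in the Y complex, 20% in the inner ring and 40% at the cytoplasmic face. It was 66.7% in the nuclear basket and in the pore membrane. These classes hold 3 to 8 genes each, few to set against the 38.1% of all tested genes.

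The Y complex is the scaffold of the outer rings on both faces of the pore. In it 2 of 8 members rose. NUP160 (chr11:47778118-47848544), a large scaffold subunit, had 28.8, 27.3 and 27.4 FPKM in the shNC libraries and 33.3, 33.6 and 33.3 FPKM in the shTDP43 libraries. Each shTDP43 library lay above each shNC library by at least 4.49 FPKM. The level rose from 27.8 ± 0.847 to 33.4 ± 0.146 FPKM (SD, n = 3), 120.0% of control (log2 fold change 0.25 with SE 0.03; limma adjusted p = 0.000364). NUP107, a subunit of the stem of the complex, rose from 34.9 ± 1.25 to 37.8 ± 0.866 FPKM (108%; limma adjusted p = 0.0314). That call was lost in 7 of 17 alternatives, among them the replicate block (limma adjusted p = 0.0513). NUP133, NUP85, NUP43 and SEC13, which also serves in vesicle coats, had 105%, 108%, 108% and 105% of control and did not pass. NUP37 and SEH1L had 88.1% and 94.9% of control and did not pass either (limma adjusted p = 0.0823 and 0.164). Subunits of this one complex thus ranged from -0.17 to 0.25 on the log2 scale. NUP37 passed as lower in 1 alternative, without shTDP43 replicate 3. NUP160 made up 13.5% ± 0.290 of the summed FPKM of the 8 genes in shNC and 15.4% ± 0.379 in shTDP43 (SD, n = 3), and NUP37 7.72% ± 0.424 and 6.45% ± 0.569.

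The inner ring, which lies at the plane of the membrane, showed 1 call in 5. NUP35 rose from 21.2 ± 0.326 to 23.0 ± 0.826 FPKM (SD, n = 3), or 108% of control (limma adjusted p = 0.0325), a call lost in 8 of 17 alternatives, among them the correction for length and GC content and leaving out any one of shNC replicates 1 to 3 or shTDP43 replicates 1 and 3. NUP205, NUP188, NUP155 and NUP93 lay between 97.4% and 104% of control. None of these 4 large scaffold genes passed in the fit or in any alternative.

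The central channel is filled by nucleoporins with phenylalanine-glycine repeats, the selective barrier that receptors pass. None of the 3 members passed. NUP62, the core repeat protein, had 20.0, 20.3 and 21.1 FPKM in the shNC libraries and 21.1, 22.7 and 21.6 FPKM in the shTDP43 libraries. Its groups stood 0.022 FPKM apart at their nearest values, less than the range within either group. The log2 difference was 0.09 (95% interval 0.00 to 0.17; limma adjusted p = 0.0997). NUP98, a repeat protein that also yields the scaffold protein NUP96 from the same transcript, had 24.6 ± 0.427 FPKM in shNC and 25.0 ± 0.590 FPKM in shTDP43 (SD, n = 3; log2 difference 0.02, 95% interval -0.05 to 0.09). NUP54 was at 99.7% of control (95% interval -0.12 to 0.11 on the log2 scale).

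At the cytoplasmic face, where export complexes are taken apart, 2 of 5 members rose. NUP214 (chr9:131125586-131234663), a docking site for XPO1, had 15.8, 16.2 and 14.8 FPKM in the shNC libraries and 17.8, 18.4 and 18.1 FPKM in the shTDP43 libraries. The groups did not overlap, and the level stood at 116% of control (log2 fold change 0.20, SE 0.04; limma adjusted p = 0.0051). RANBP2, the filament protein that holds RANGAP1 at the pore, had 24.7, 24.9 and 24.9 FPKM in the shNC libraries and 27.6, 28.7 and 27.9 FPKM in the shTDP43 libraries. The shNC libraries were within 0.19 FPKM of one another and all below the shTDP43 libraries (113% of control; limma adjusted p = 0.00195). About 43.1% of the RANBP2 transcript matches RGPD genes at 95% identity or more, so its value is uncertain. RGPD1, RGPD2, RGPD3, RGPD4, RGPD5, RGPD6 and RGPD8 had group means of at most 0.404 FPKM. NUP88, the partner of NUP214, was at 107% and did not pass (95% interval -0.04 to 0.23 on the log2 scale). RAE1, an mRNA export factor, and AAAS were at 101% and 97.0% of control and did not pass.

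All 3 nuclear basket members were above their shNC range, and 2 passed. Of all tested genes 50.7% had groups that did not overlap and 38.1% passed, and 3 genes are few to set against these shares. NUP50, which helps importin alpha release its cargo, had 25.1, 24.0 and 24.8 FPKM in the shNC libraries and 28.4, 28.4 and 28.6 FPKM in the shTDP43 libraries. The shTDP43 libraries lay within 0.164 FPKM of one another (116% of control, log2 fold change 0.20, SE 0.03; limma adjusted p = 0.000993). Processed pseudogenes match up to 26.8% of the NUP50 transcript, which makes its value uncertain to that extent. TPR, the basket's long coiled-coil protein, rose from 60.6 ± 1.21 to 65.1 ± 1.03 FPKM (SD, n = 3), or 107% of control (limma adjusted p = 0.0137), a call lost without a variance trend (limma adjusted p = 0.0506). NUP153 had 105% of control and did not pass (limma adjusted p = 0.0896).

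Of the 3 membrane-spanning proteins that anchor the pore, 2 rose. POM121 (chr7:72879357-72951459) had 36.8, 35.1 and 35.7 FPKM in the shNC libraries and 44.0, 43.1 and 41.2 FPKM in the shTDP43 libraries. The groups did not overlap (119% of control, log2 fold change 0.25, SE 0.03; limma adjusted p = 0.00071). Its near-identical copy POM121C, which matches 53.2% of the POM121 transcript, rose from 28.3 ± 0.0667 to 35.7 ± 0.439 FPKM (126%; limma adjusted p = 4.07e-05), and since the sharing of reads between them is not described, both values are uncertain. NUP210 rose from 14.8 ± 0.206 to 16.2 ± 0.103 FPKM (SD, n = 3), or 109.6% of control (limma adjusted p = 0.0139), a call lost without both libraries low in SNORD3A (limma adjusted p = 0.0880). NDC1 was at 99.4% and did not pass (95% interval -0.11 to 0.09 on the log2 scale).

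**Figure D2:**
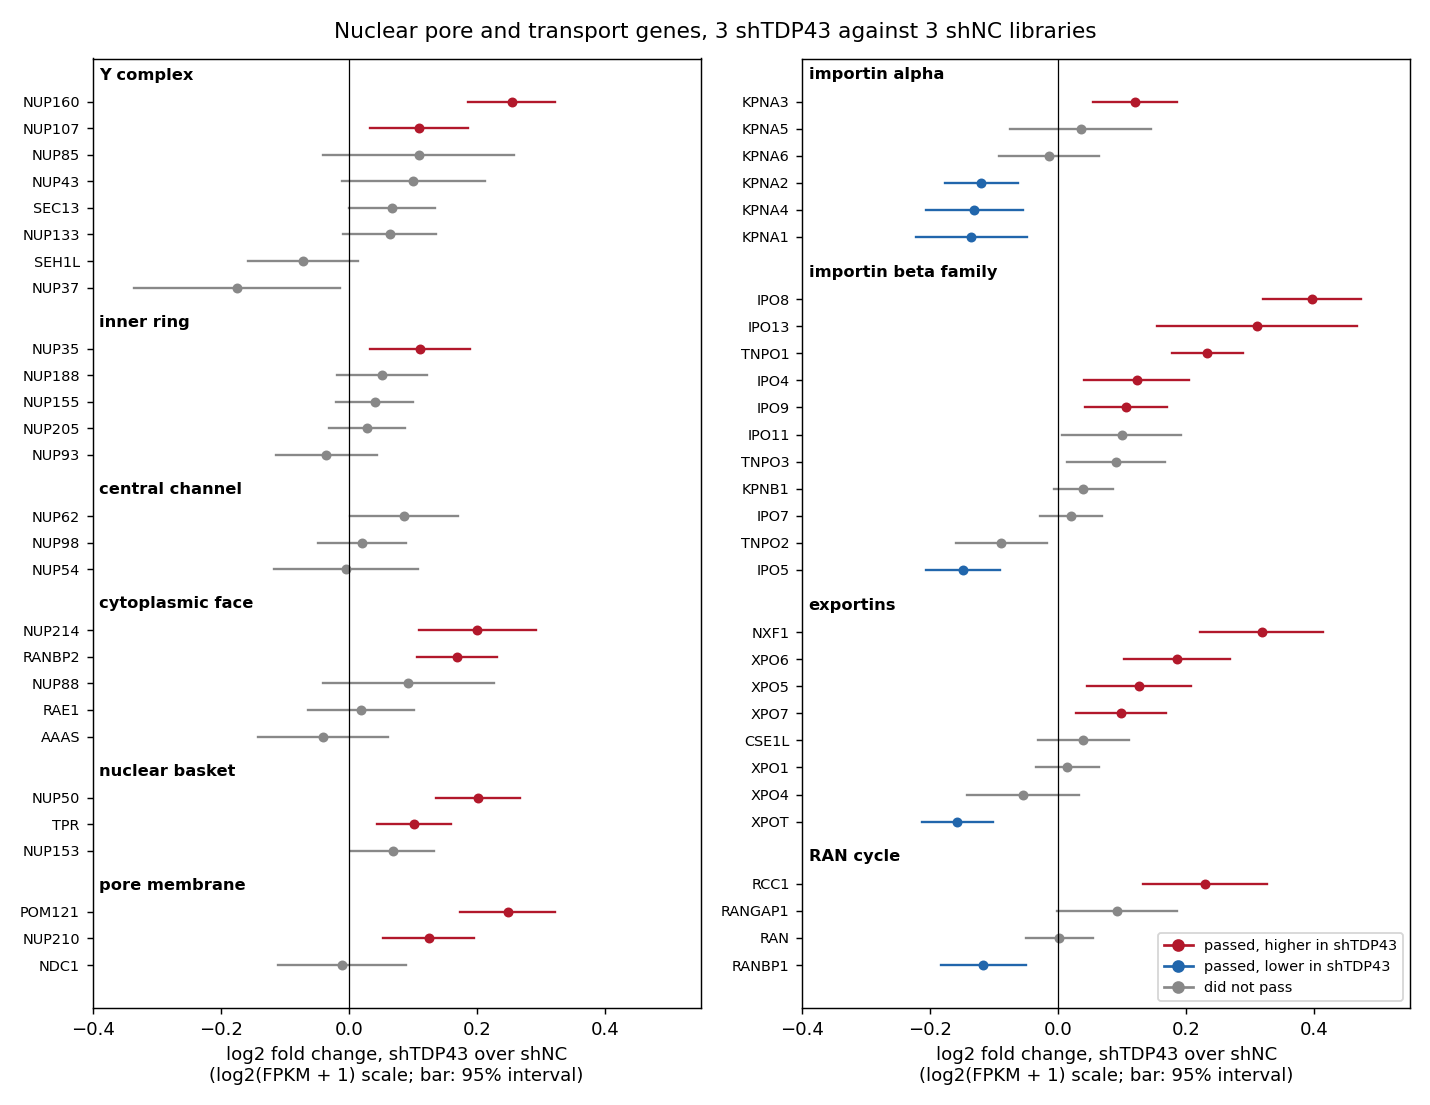
Log2 fold change on the log2(FPKM + 1) scale, shTDP43 over shNC (horizontal axis), of all 56 members by class, with 95% intervals as bars (3 libraries a group). Red points passed as higher (20), blue as lower (6) and grey did not pass (30). All coloured points among the pore proteins on the left lie above 0, whereas importins, exportins and RAN cycle genes on the right have both colours.

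Importins moved in both directions, with 6 of 17 higher and 4 lower. The share called was 58.8%, against 38.1% of all tested genes and 42.9% of those reaching 5 FPKM. Higher calls made up 35.3% of importins and 22.6% of genes reaching 5 FPKM, and lower calls 23.5% and 20.3%. In the fit of those genes alone 5 importins were lower, TNPO2 among them. Of 6 importin alpha adapters 1 rose and 3 fell, and of 11 importin beta family receptors 5 rose and 1 fell. Whether the families differ was not tested.

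KPNA2 was by far the most abundant adapter, with 135, 132 and 139 FPKM in the shNC libraries and 123, 126 and 125 FPKM in the shTDP43 libraries. The lowest shNC library was 6.46 FPKM above the highest shTDP43 library. KPNA2 fell to 91.9% of control (log2 fold change -0.12, SE 0.03; limma adjusted p = 0.00661), and the call was lost with quantile normalization. KPNA2 is high in dividing cells. The proliferation markers given above summed lower in each shTDP43 library than in each shNC library, but they did not move as one. Of the 14 markers 7 were called lower, while MCM2 and RRM2 were called higher. PCNA, MCM5 and TYMS stood at 104%, 107% and 102% of control and did not pass. The part of these markers in the KPNA2 value was not tested. KPNA1 had 17.5, 17.1 and 17.5 FPKM in the shNC libraries and 15.4, 16.5 and 15.2 FPKM in the shTDP43 libraries, with no overlap (90.5%; limma adjusted p = 0.0231). KPNA4, one of the genes with a TG repeat, had 16.1, 16.1 and 15.5 FPKM in the shNC libraries and 14.4, 14.2 and 14.6 FPKM in the shTDP43 libraries, also with no overlap (90.7%; limma adjusted p = 0.0151). These calls were lost in 6 and 3 of 17 alternatives, and an antisense gene overlaps 16.3% of the exonic bases of KPNA1. KPNA3, the closest relative of KPNA4 among the adapters, rose to 109% of control (limma adjusted p = 0.0117), a call lost without both libraries low in SNORD3A. KPNA5 and KPNA6 were at 103% and 98.9% and did not pass. Without shNC replicate 1 only IPO5 and KPNA2 were left among the 4 importins called lower.

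The makeup of the adapter pool differed little between the groups. KPNA2 accounted for 61.2% ± 0.642 of the summed FPKM of the 6 adapters in shNC and 59.5% ± 0.0782 in shTDP43 (SD, n = 3; exact two-sided permutation test p = 0.1, the smallest possible). KPNA3 accounted for 10.1% ± 0.0485 and 11.7% ± 0.145. The summed level of the adapters was 218 to 225 FPKM in shNC and 206 to 211 FPKM in shTDP43, so the groups did not overlap. The summed level of the 11 importin beta family receptors went the other way, from 477 to 482 FPKM in shNC and from 501 to 507 FPKM in shTDP43.

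KPNB1, importin beta 1, which carries the adapters and their cargo, had the highest mean of the 2 group means among the members, although RANBP1 was higher in shNC. It had 147, 145 and 144 FPKM in the shNC libraries and 150.1, 149.7 and 148 FPKM in the shTDP43 libraries. The nearest values of the groups were 1.46 FPKM apart, less than the range within either group. It did not pass, at 103% of control (limma adjusted p = 0.154; 95% interval -0.01 to 0.08 on the log2 scale), although it passed as higher with quantile normalization (limma adjusted p = 0.00646).

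IPO8 (chr12:30628988-30695869), a receptor related to IPO7, showed the largest fold change of all 56 members. It had 16.8, 16.1 and 17.2 FPKM in the shNC libraries and 22.0, 22.3 and 22.3 FPKM in the shTDP43 libraries. Each shTDP43 library was at least 4.88 FPKM above each shNC library. The level rose from 16.7 ± 0.556 to 22.2 ± 0.171 FPKM (SD, n = 3), 134% of control (log2 fold change 0.40 with SE 0.03; limma adjusted p = 6.6e-05). Its relative IPO7 had 85.7 ± 0.580 FPKM in shNC and 86.9 ± 0.989 FPKM in shTDP43, 101% of control, and did not pass (95% interval -0.03 to 0.07 on the log2 scale). The rise of IPO8 thus lay outside the interval of IPO7, although the difference between them was not tested.

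IPO13 (chr1:43946950-43968022), which carries cargo in both directions, was the least abundant member, with 4.39, 4.09 and 4.94 FPKM in the shNC libraries and 5.91, 5.50 and 5.92 FPKM in the shTDP43 libraries. The groups did not overlap, and the level stood at 129% of control (log2 fold change 0.31, SE 0.07; limma adjusted p = 0.00843). The call was lost without both libraries low in SNORD3A (limma adjusted p = 0.0759). TNPO1 (chr5:72816661-72914388), transportin 1, imports several hnRNP proteins. It had 68.8, 68.8 and 70.4 FPKM in the shNC libraries and 79.8, 82.6 and 82.3 FPKM in the shTDP43 libraries, with a gap of 9.41 FPKM between the groups (118% of control, log2 fold change 0.23, SE 0.02; limma adjusted p = 0.000209). Its paralog TNPO2 had 21.6, 22.3 and 21.8 FPKM in the shNC libraries and 20.5, 20.0 and 21.0 FPKM in the shTDP43 libraries. The TNPO2 groups did not overlap, with all shTDP43 libraries lower, but it did not pass (93.7%; limma adjusted p = 0.0512), and it passed as lower in 3 of 17 alternatives. TNPO3, the receptor of SR splicing factors, was at 107% and did not pass (limma adjusted p = 0.0663).

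IPO5, an importer of ribosomal proteins and histones, was the only one of the 11 receptors called lower. It had 59.2, 57.3 and 58.2 FPKM in the shNC libraries and 51.4, 53.3 and 52.6 FPKM in the shTDP43 libraries. The groups were 3.99 FPKM apart at their nearest values (90.0% of control, log2 fold change -0.15, SE 0.03; limma adjusted p = 0.00249). IPO4 and IPO9, both histone importers, rose to 109.6% and 108% of control (limma adjusted p = 0.0281 and 0.0187), calls lost in 6 and 4 of 17 alternatives. A read-through transcript shares 69.3% of the exonic bases of IPO4, so its value is uncertain. IPO11 was at 108% and did not pass. Without both libraries low in SNORD3A, 2 importins were higher and 2 lower, where 1563 and 1760 of 13259 tested genes were.

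Of the 8 export receptors 4 rose and 1 fell. The share called was 62.5%, against 38.1% of all tested genes and 42.9% of those reaching 5 FPKM. Higher calls made up 50% of the 8 and 22.6% of genes reaching 5 FPKM, and lower calls 12.5% and 20.3%. NXF1 (chr11:62792130-62805440), the receptor for bulk mRNA, is unrelated to the exportins and does not depend on RAN. It had 14.1, 14.2 and 14.6 FPKM in the shNC libraries and 18.3, 17.1 and 18.9 FPKM in the shTDP43 libraries. The groups did not overlap, and shTDP43 replicate 2 was the lowest of its group. NXF1 rose from 14.3 ± 0.288 to 18.1 ± 0.910 FPKM (SD, n = 3), 126% of control (log2 fold change 0.32 with SE 0.04; limma adjusted p = 0.000734).

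XPOT (chr12:64404392-64451125), the exportin of tRNA, was the member with the lowest percentage of control among those that passed. It had 65.9, 66.9 and 66.2 FPKM in the shNC libraries and 59.6, 60.4 and 58.0 FPKM in the shTDP43 libraries. The lowest shNC library was 5.47 FPKM above the highest shTDP43 library (89.5% of control, log2 fold change -0.16, SE 0.02; limma adjusted p = 0.00147). XPOT has processed pseudogenes that match up to 45% of its transcript, so its value is uncertain to that extent. XPO6, which exports actin with profilin, had 19.7, 19.4 and 20.4 FPKM in the shNC libraries and 22.8, 21.8 and 23.4 FPKM in the shTDP43 libraries, with no overlap (114%; limma adjusted p = 0.00477). XPO5, the exportin of microRNA precursors, and XPO7 rose to 109% and 107% of control (limma adjusted p = 0.0231 and 0.0355). Their calls were lost in 6 and 8 of 17 alternatives. XPO6 and XPO7, but not XPO5, lost their calls without both libraries low in SNORD3A (limma adjusted p = 0.0518 for XPO6). The number of export receptors called higher was 2 with the replicate block, without a variance trend, without both libraries low in SNORD3A, or without any one of shNC replicate 3, shTDP43 replicate 2 and shTDP43 replicate 3.

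XPO1, the main protein exportin, which reads leucine-rich export signals, had 80.8, 79.0 and 80.2 FPKM in the shNC libraries and 81.4, 80.8 and 80.2 FPKM in the shTDP43 libraries. The groups overlapped, and the log2 difference was 0.01 (95% interval -0.04 to 0.06; limma adjusted p = 0.645). CSE1L, which returns importin alpha to the cytoplasm, and XPO4 were at 103% and 95.9% of control and did not pass. The summed level of the 7 exportins other than NXF1 was 285 to 289.9 FPKM in shNC and 288 to 293 FPKM in shTDP43, so the groups overlapped. XPO1 made up 27.8% ± 0.0921 of it in shNC and 27.9% ± 0.357 in shTDP43 (SD, n = 3).

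Of the 4 RAN cycle genes 1 rose and 1 fell (50% called, against 42.9% of genes reaching 5 FPKM). RCC1 (chr1:28506043-28538989), the chromatin-bound factor that loads RAN with GTP, had 15.4, 15.5 and 16.7 FPKM in the shNC libraries and 19.5, 18.3 and 18.4 FPKM in the shTDP43 libraries. No values overlapped (118% of control, log2 fold change 0.23, SE 0.04; limma adjusted p = 0.00368). The small nucleolar RNA host gene SNHG3 shares 6.22% of the exonic bases of RCC1 on the same strand and rose too (117%; limma adjusted p = 0.00632), so reads of the shared exons cannot be told apart. RANBP1, which helps release RAN from receptors in the cytoplasm, had 152, 149.6 and 145 FPKM in the shNC libraries and 134, 136 and 142 FPKM in the shTDP43 libraries. All shTDP43 libraries were below all shNC libraries, by 3.20 FPKM at the nearest (92.1% of control; limma adjusted p = 0.0144). The call was lost with quantile normalization (limma adjusted p = 0.0829) and without a variance trend (limma adjusted p = 0.0520). RANBP1 shares 8.5% of its exonic bases with TRMT2A on the opposite strand, which was higher in shTDP43 (123%; limma adjusted p = 0.0125), and a processed pseudogene matches 42.7% of its transcript, so its value is uncertain. RAN itself had 137, 139.9 and 138 FPKM in the shNC libraries and 141, 136 and 138 FPKM in the shTDP43 libraries. The groups overlapped, and the log2 difference was 0.00 (95% interval -0.05 to 0.05). RANGAP1, which makes RAN hydrolyse its GTP, was at 107% of control and did not pass (limma adjusted p = 0.113).

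**Figure D3:**
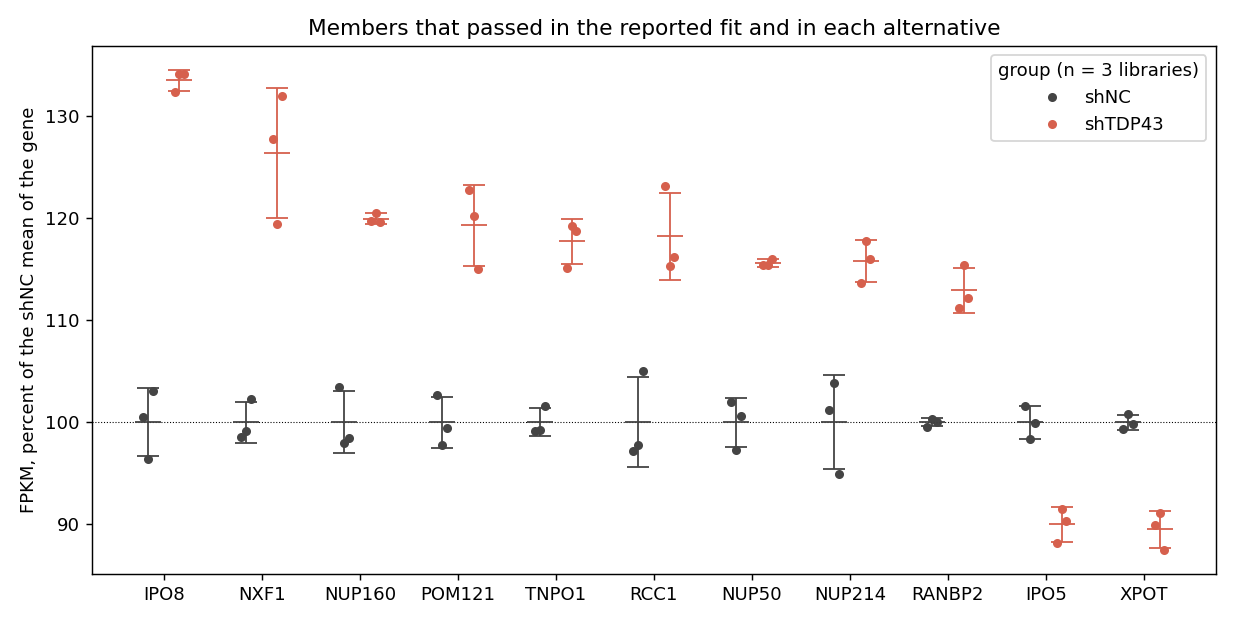
FPKM of each library as a percentage of the gene's shNC mean (vertical axis, not starting at 0) for the 11 members that passed in the reported fit and in all 17 alternatives (horizontal axis). Points are libraries (3 shNC in grey, 3 shTDP43 in red), and bars give the mean and SD. The groups do not overlap in any of the 11, with 9 genes above and 2 below their control. The 11 were chosen by passing in each setting on these same libraries, so the lack of overlap is no separate evidence.

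Calls of 11 members therefore held in each of the 17 alternatives, and the plot of values by library shows these genes. The share of all tested genes whose calls held in each alternative was not taken, so 11 cannot be set against it. The 9 higher ones were NUP160, NUP214, RANBP2, NUP50, POM121, IPO8, TNPO1, NXF1 and RCC1, and the 2 lower ones IPO5 and XPOT. The other 15 calls were lost in at least 1 alternative, 6 further members passed in at least 1, and 24 never passed. No member was called in opposite directions, although all settings use the same 6 libraries or some of them and so are no independent check of direction.

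**Figure D4:**
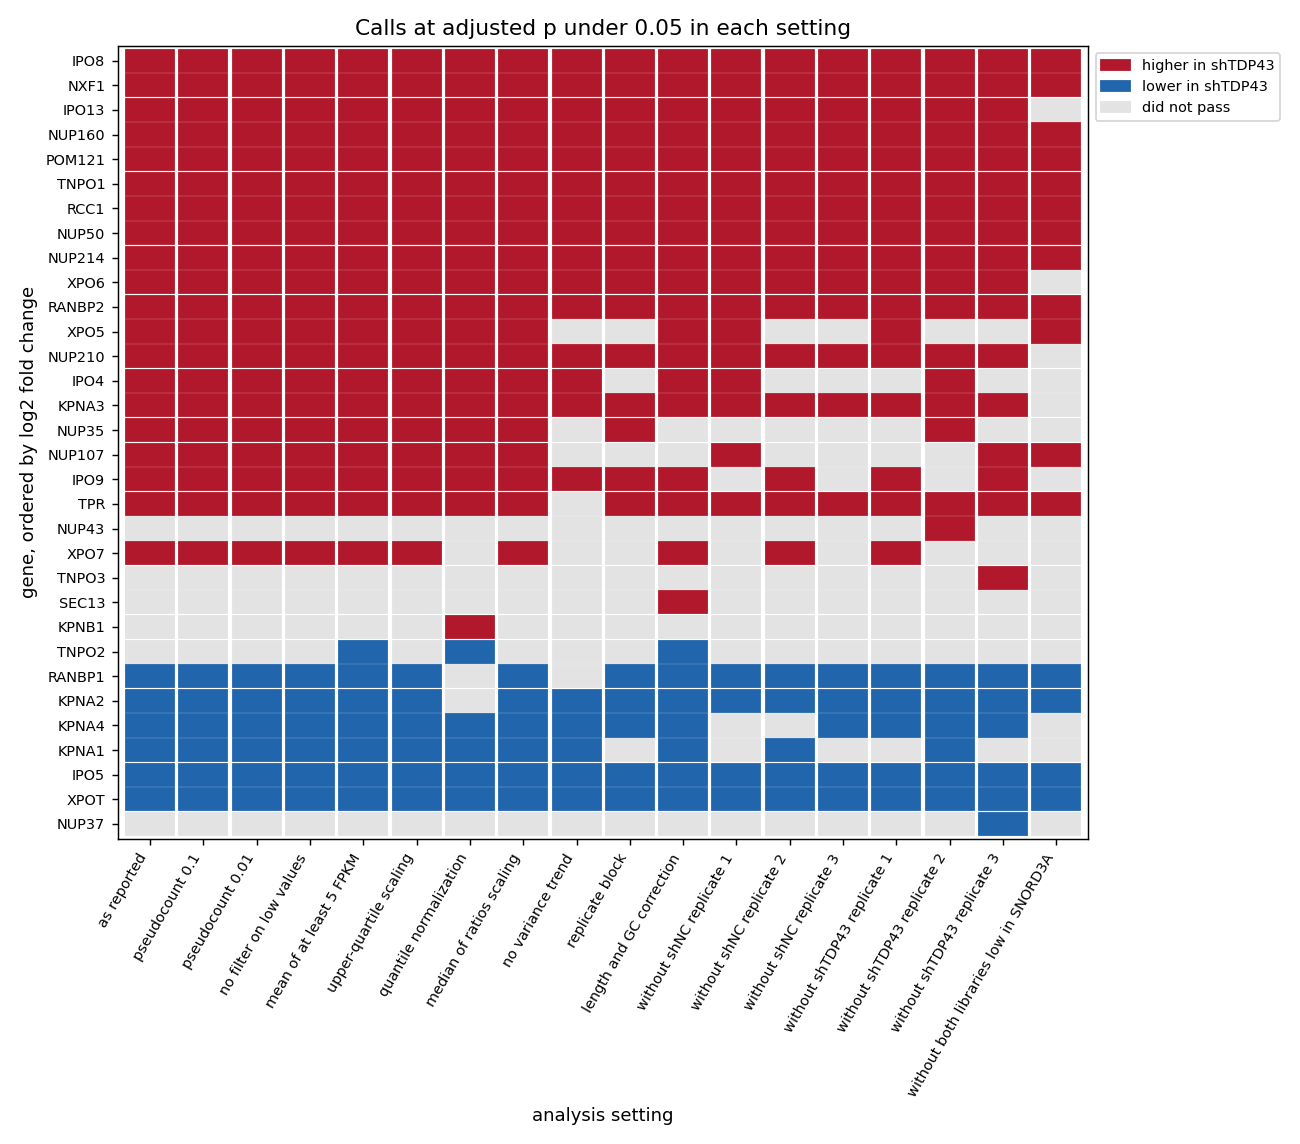
Calls at a limma adjusted p under 0.05 for the 32 members that passed in at least 1 of 18 settings (rows, ordered by fold change) in the reported fit and the 17 alternatives (columns). Red is higher in shTDP43, blue lower and grey did not pass; 11 rows are coloured throughout and no row holds both colours.

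Another 28 pore and transport genes outside the 56 were examined. Of these, 25 were above the filter, and 11 rose, 0 fell and 14 did not pass. The share called was 44%, against 38.1% of all tested genes. It was near the 42.9% of genes whose mean reached 5 FPKM, a range that holds all 25. Higher calls made up 44% of the 25 and 22.6% of those genes, and lower calls 0% and 20.3%. KPNA7, an adapter of the early embryo, and the NXF1 relatives NXF2 and NXF3 were at or near 0. Besides POM121C, DDX19B, a helicase gene that releases mRNA at the cytoplasmic face, rose from 13.8 ± 0.876 to 17.3 ± 0.882 FPKM (SD, n = 3), or 125% of control (limma adjusted p = 0.00319), and its paralog DDX19A rose to 112%. Both values are uncertain where reads fit either paralog. GLE1, the activator of that helicase, rose to 111%, and NUPL2 (NUP42), which binds GLE1, to 109% of control (limma adjusted p = 0.0323 and 0.00974). AHCTF1 (ELYS), which starts pore assembly on chromatin, rose to 107%, RANBP3, a cofactor of XPO1, to 116%, and MCM3AP, the scaffold of an mRNA export complex, to 108%. TMEM33, RANBP6 and RANBP10 rose to 112%, 113% and 123%. NUTF2, the import factor of RAN, was at 98.2% and NXT1, the partner of NXF1, at 118% of control, and neither passed (limma adjusted p = 0.558 and 0.111). The number higher was 7 without shNC replicate 2, where 1932 of 13233 tested genes were higher. It was 3 without both libraries low in SNORD3A, where 1563 of 13259 tested genes were higher.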

How the data were processed

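The authors deposited 1 FPKM value per gene symbol and library (26372 symbols, 6 libraries). Per the submitters' processing notes, TopHat2 2.1.0, SAMtools and Cuffdiff 2.2.1 were used with build hg38. Libraries were poly(A)-selected and directional, per the labels' protocols. Not given in the sources used here: annotation, strand use, handling of multi-mapped reads and library scaling. No counts are at hand, so no count model was used, and the depth is unknown.

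Values were analysed as log2(FPKM + 1) in R 4.3.3 with limma 3.58.1 (group as the only term, variance trend, two-sided). Of the symbols, 13263 with a mean of at least 1 FPKM were tested, 13109 were not, and p-values were adjusted over all tested genes. The fold change on this scale understates that of low genes. Intervals are limma's 95% intervals. The members, lists and tests were chosen with earlier results of these data known. Genes named in detail were TARDBP, the 3 called members of each class with the largest change (6 for the importins), and NUP98, NUP62, RANBP2, KPNB1, TNPO1, XPO1, NXF1 and RAN. Others were named after their values were seen. The procedure was tested on simulated data with 200 changed genes. It recovered 5 of 50 genes changed 1.1-fold, 26 of 50 at 1.2-fold, 42 of 50 at 1.5-fold and 49 of 50 at 2-fold. There were 6 false calls among 13063 unchanged genes. A member that did not pass may thus still have changed by a small amount. Far more genes were called in the real data, so recovery there may differ.

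Spans and promoters came from RefSeq (GRCh38.p14). Transcripts and exon overlaps came from GENCODE 29 (GRCh38), and near-identical copies from blastn 2.17.0 at 95% identity over at least 20% of a transcript. The alternatives were other pseudocounts (0.1 and 0.01), filters (none, or 5 FPKM), scalings, no variance trend, a replicate block, a length and GC correction, and leaving out libraries.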

Additional observations from a re-analysis of the deposited data

How the results depend on the processing

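Across the 17 alternatives, the count of members higher ran from 12 to 20 and that of members lower from 4 to 7, and TARDBP stayed lower throughout. Without both libraries low in SNORD3A, which leaves 2 libraries a group, 3323 of 13259 tested genes passed, 1563 of them higher. In that setting 12 members were higher, with 2 importins higher and 2 lower, 2 export receptors higher and 3 of the other transport genes higher. The number of export receptors higher was 2 without a variance trend. RAN cycle genes lower were 0 with quantile normalization and 0 without a variance trend. Leaving out each library in turn gave 0 to 1 pore proteins lower, 2 to 4 importins lower, 2 to 4 export receptors higher and 7 to 11 other transport genes higher. Samples with the same replicate number showed little shared deviation (r = -0.0683, 0.0644 and 0.112). Of 6 samples 2 correlated best with their own number. With 3 libraries a group, these values cannot settle whether equal numbers mark a shared batch, and the labels do not say. With the replicate block 4502 genes, 16 members higher, 5 lower and 2 export receptors higher passed. Of the genes that did not pass, XPO1 changed sign with the length and GC correction (-0.021). RAN changed sign with it (-0.00501), without both libraries low in SNORD3A (-0.00419) and without single libraries, where its log2 difference ran from -0.0123 to 0.0133. The causes were not tested. Of the values under an alternative of the genes named in detail, TARDBP left aside, 388 kept direction and side of the threshold, 30 lost the call, 1 gained it and 6 changed sign. Unknown depth limits what can be said of small differences.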
